A study of Homo sapiens with 3 samples.

Results

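Binding of HA-tagged TFE3 in HK-2 cells was examined at 9 genes of the nutrient-sensing pathway around the kinase complex mTORC1. They are DEPDC5, SESN2, SESN1, TSC1, TSC2, RHEB, MTOR, RPTOR and DEPTOR. They were grouped by their role in the pathway, by a rule that uses no binding value, although earlier results of these data were known when the group was proposed. For each gene, all listed binding summits in its span on hg19 and in the 5 kb on each side were counted, which gave 58 of the 62287 summits of replicate 1 and 55 of the 72647 summits of replicate 2. HK-2 is an established line from human kidney proximal tubule epithelium, and it was engineered here to produce HA-TFE3 when doxycycline is added. The series holds 2 HA-TFE3 ChIP-seq libraries precipitated through the HA tag and 1 input DNA library, for which no summit list was analysed here. Culture lasted 24 h with or without doxycycline at 0.2 µg/ml, and the labels do not say which of these the libraries came from. The tagged protein is an introduced copy, so binding of the cells' own TFE3 was not measured, and no expression values were available to check the HK-2 label against markers.

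TFE3 belongs to the MiT/TFE family of leucine zipper transcription factors, known to bind E-box sequences and to switch on lysosomal and autophagy genes. mTORC1, a growth-promoting kinase complex at the lysosome, is known to phosphorylate TFE3 and to hold it in the cytoplasm while amino acids are plentiful. The genes described here encode the kinase itself, its partners, and the proteins that pass amino acid and growth factor signals to it. The question was where in these genes HA-TFE3 was found.

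All 9 genes had an HA-TFE3 summit within 1 kb of the start of its span in both libraries. A summit counted as shared when a summit of each list was the other's nearest and they lay at most 100 bp apart. The highest-ranked start summits were those of DEPDC5 and SESN2, and the lowest was that of TSC1. Gene starts are known here only to 1 kb, so the side of the start on which a summit lies cannot be read from these distances. By comparison, 5.40% of all 4 kb windows along the genome held a shared summit. That width matches a zone of 2 kb on each side of a start, which is wider than the 1 kb given above. Windows as wide as those of the members held a shared summit in 29.1% (the width of SESN2) to 77.5% (that of RPTOR) of cases. Both backgrounds take in gene deserts and stretches that cannot be mapped. The starts of other genes on hg19 were not used here, so how often gene starts in general carry a shared summit was not measured.

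The bases just before the starts of 3 genes and before a second start of SESN1 are shown. DEPDC5 and SESN2 had the highest-ranked start summits, TSC2 has the E-box described next, and the second start of SESN1 is referred to beside a summit inside that gene. No summit was placed on these sequences. They are RefSeq promoter sequences on GRCh38.p14, of which 150 bases before each start are printed, 5′ to 3′ on the gene's strand, with the E-box CACGTG in capitals where it occurs. The positions are chr22:31753818-31753967 on the plus strand for DEPDC5, chr1:28259368-28259517 on the plus strand for SESN2, chr16:2047835-2047984 on the plus strand for TSC2, and chr6:109009553-109009702 on the minus strand for the second start of SESN1.
DEPDC5: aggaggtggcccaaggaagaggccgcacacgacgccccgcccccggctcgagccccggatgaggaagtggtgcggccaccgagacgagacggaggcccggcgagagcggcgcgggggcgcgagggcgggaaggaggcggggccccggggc
SESN2: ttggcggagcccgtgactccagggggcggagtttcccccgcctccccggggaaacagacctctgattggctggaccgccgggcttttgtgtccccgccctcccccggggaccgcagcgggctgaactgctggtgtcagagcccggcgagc
TSC2: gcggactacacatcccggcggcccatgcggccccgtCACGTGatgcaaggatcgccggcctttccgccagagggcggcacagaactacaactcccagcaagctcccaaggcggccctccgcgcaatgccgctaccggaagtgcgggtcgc
SESN1, second start: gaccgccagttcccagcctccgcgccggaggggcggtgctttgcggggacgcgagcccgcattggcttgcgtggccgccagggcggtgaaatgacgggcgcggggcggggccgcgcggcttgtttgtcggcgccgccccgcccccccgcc

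The E-box was found in the promoter of TSC2 alone among the members that had a promoter entry. Promoter entries of 300 bases, 250 before and 50 after a start, were matched by symbol for 8 of the 9 genes and numbered 13, several of them overlapping. CACGTG was present in 1 of these 13 entries, against 7.26% of all 35116 promoter entries. The TSC2 match began at base -114 from the start and was flanked so that the longer form TCACGTG matched on both strands, in overlapping positions. TCACGTG was present in 3.71% of all entries. The M-box TCATGTG, the other element known for this family, was found in 0 of the 13 entries and in 2.92% of all entries, with both strands searched. DEPDC5 and SESN2, whose start summits ranked highest, had none of these motifs in the 300-base window. Among 22 further genes of the pathway, 15 had an entry, and CACGTG was present in 2 of their 16 entries, those of NPRL3, a GATOR1 subunit, and KICS2, a subunit of the KICSTOR complex. A match describes the letters of the window, and no match says nothing of the bases outside it. Summits of these further genes were not analysed here, because their positions on hg19 were not in the sources used.

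DEPDC5 encodes a subunit of GATOR1, the complex that turns off the Rag GTPases and so keeps mTORC1 inactive when amino acids are scarce. Its span covers 155 kb of chromosome 22, from 32149 to 32304 kb on the plus strand. The span held 3 shared summits, and with the 5 kb on each side there were 4. The summit at base 32149871, 871 bp from the start of the span, scored 71.3 in replicate 1 and 66.6 in replicate 2. These scores are the authors' own values for each summit, with no scale given, and they were ranked only within a list. The DEPDC5 start summit stood at percentile 99.9 of replicate 1 and 99.8 of replicate 2, the highest rank of any member in both lists. A second shared summit lay 756 bp away at base 32149115, with scores of 11.1 and 12.1.

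Both other shared summits of DEPDC5 also ranked high. Inside the gene, base 32225686, 76.7 kb from the start, scored 28.0 in replicate 1 and 27.2 in replicate 2, which is percentile 92.6 and 91.0. Base 32146156, 2844 bp upstream of the start, scored 27.6 and 24.5, or percentile 92.3 and 88.4. The protein-coding gene next to DEPDC5 on that side is PRR14L, which is transcribed in the opposite direction according to RefSeq on GRCh38.p14. To which gene that summit belongs was not determined. Replicate 2 alone had 1 further summit, at percentile 12.0.

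The sestrins are stress-induced proteins known to restrain mTORC1 through the GATOR complexes. SESN2, the sestrin known to sense leucine, spans only 24 kb on the plus strand of chromosome 1, from 28585 to 28609 kb, and held 2 shared summits. At base 28585907, 907 bp from the start, the score was 55.4 in replicate 1 and 49.4 in replicate 2. This is percentile 99.5 and 98.7, so the SESN2 start summit was in the top decile of both lists, as was that of DEPDC5. The other one, at base 28600110 and 15.1 kb into the gene, scored 5.46 and 12.0 and differed in rank between the lists, with percentile 23.1 in replicate 1 and 64.4 in replicate 2. A summit found only in replicate 1, 1800 bp from the start, was at percentile 17.5.

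SESN1, a sestrin known as a p53 target, had 3 shared summits within 943 bp at its start, more than any other member. Its span covers 110 kb of chromosome 6, from 109307 to 109417 kb on the minus strand. The highest of the 3 was the middle one, at base 109416176 and 824 bp from the start, with scores of 22.6 in replicate 1 and 22.6 in replicate 2 (percentile 87.8 and 86.6). Base 109415765 scored 8.21 and 8.30, near the middle of both lists. Base 109416708, the nearest to the start at 292 bp, scored 13.5 in replicate 1 and only 4.36 in replicate 2. With percentile 70.5 against 13.2, this was the member pair whose rank differed most between the lists. The next protein-coding gene upstream is CEP57L1, transcribed away from SESN1 in RefSeq on GRCh38.p14. To which of these genes the start summits belong was not determined.

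Within SESN1, 2 more summits were shared. One, at base 109394733 and 22.3 kb from the start, scored 7.73 in replicate 1 and 20.9 in replicate 2. Base 109330784, 86.2 kb from the start, scored 23.2 and 13.7, which is percentile 88.3 and 70.1. RefSeq lists further starts of SESN1 at 85.3 and 85.9 kb downstream of the first on GRCh38.p14, the first of which is the second start printed above. Whether the summit lies on one of these starts was not determined, because the summits are on hg19. None of the 3 SESN1 promoter entries held an E-box or an M-box of these letters.

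**Figure D1:**
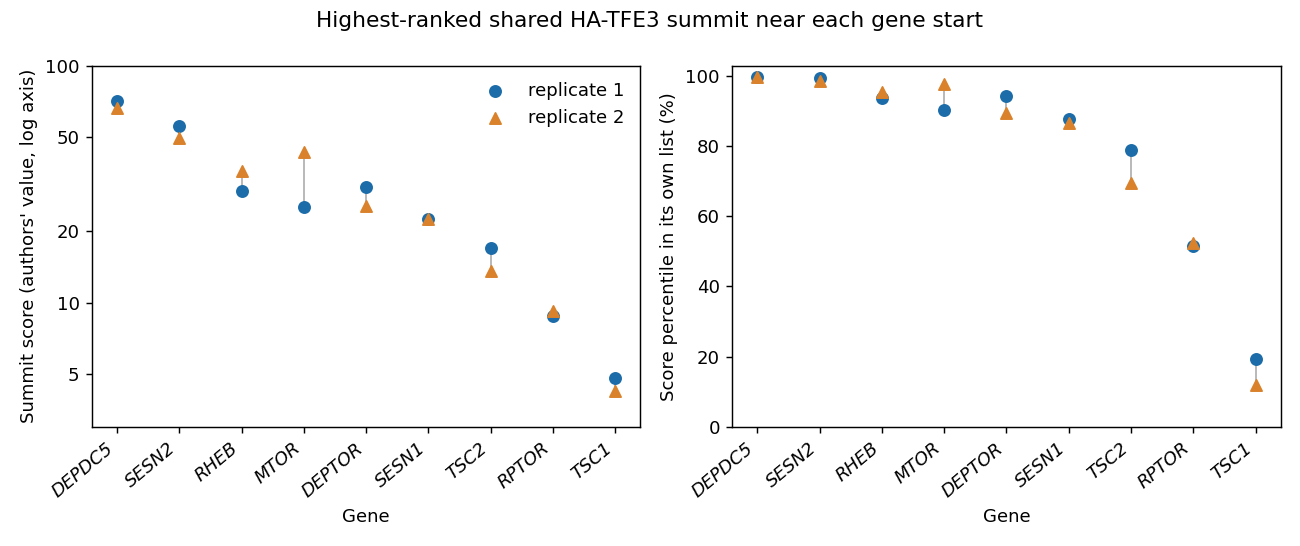
The highest-ranked shared summit within 2 kb of each gene start is plotted as the authors' score on a log axis (left) and as the percentile of that score in its own list (right). Circles are replicate 1 and triangles replicate 2; the percentiles lie near 100 in both replicates for DEPDC5 and SESN2 and between 12.0 and 19.2 for TSC1.

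RHEB encodes the small GTPase that activates mTORC1 directly, and its start summit was also in the top decile of both lists. On the minus strand of chromosome 7, its span runs over 55 kb from 151163 to 151218 kb. The start summit, at base 151217333 and 667 bp from the start, scored 29.7 in replicate 1 and 35.8 in replicate 2 (percentile 93.8 and 95.6), and the paired bases lay 3 bp apart. With 6 shared summits in a window of 65 kb, RHEB was the most densely occupied member. Along the genome, 3.11% of windows of this width held as many shared summits or more. The other 5 ran from percentile 20.9 to 85.8, and the highest of them lay 28.9 kb into the gene with scores of 14.4 and 22.1. One of the 5 lay 3616 bp upstream. Summits found in 1 list only numbered 3 in replicate 1 and 1 in replicate 2, and all 4 were at percentile 8.2 or below. With a pairing limit of 200 bp, RHEB had 7 shared summits.

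RHEB is held inactive by the complex of TSC1 and TSC2, in which TSC2 is the GTPase-activating subunit and TSC1 stabilises it. Their start summits were among the 3 lowest of the 9. TSC2 spans 42 kb of chromosome 16, from 2097 to 2139 kb on the plus strand. At its start, base 2097915 scored 17.0 in replicate 1 and 13.6 in replicate 2, which is percentile 78.9 and 69.5. The RefSeq window before this start is the one that holds the E-box printed above. Inside TSC2, the shared summits at bases 2109160 and 2115470 scored 15.9 and 11.4 in replicate 1, but 5.66 and 6.95 in replicate 2. The first of these thus ranked at percentile 76.9 in one list and 27.4 in the other. NTHL1, a DNA glycosylase gene transcribed the opposite way, adjoins TSC2 upstream in RefSeq, and the summit found in replicate 2 alone at percentile 57.3 lay 4719 bp upstream on that side. Replicate 1 alone had another, 322 bp from the start of TSC2, at percentile 39.4. Whether the summits near this start belong to TSC2 or to NTHL1 was not determined.

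TSC1 had the weakest start summit and only 2 shared summits. Its span covers 55 kb of chromosome 9, from 135766 to 135821 kb on the minus strand. At base 135820188, 812 bp from the start, the score was 4.83 in replicate 1 and 4.23 in replicate 2 (percentile 19.2 and 12.0). The paired bases lay 93 bp apart, close to the limit of 100 bp, and with a limit of 50 bp they no longer counted as shared. The other summit, at base 135777411 and 43.6 kb into the gene, stood at the middle of both lists, with scores of 9.91 and 9.69. No TSC1 summit was found in 1 list only.

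MTOR encodes the kinase subunit. It spans 157 kb of chromosome 1, from 11166 to 11323 kb on the minus strand, and held 4 shared summits. Its start summit, at base 11322833 and 167 bp from the start, scored 25.2 in replicate 1 and 43.4 in replicate 2. The percentiles were 90.3 and 97.8, in the top decile of both lists, but the score was higher in replicate 2. The 3 shared summits inside MTOR ranked lower, from percentile 18.7 to 76.4. They were base 11301913, with scores of 5.70 and 4.59, base 11240580, with 8.55 and 16.4, and base 11194559, with 6.89 and 6.71. ANGPTL7, a secreted protein gene, lies within MTOR in RefSeq, and whether a summit belongs to it was not determined. A summit of replicate 2 alone, 82.9 kb into MTOR, was at percentile 18.7.

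**Figure D2:**
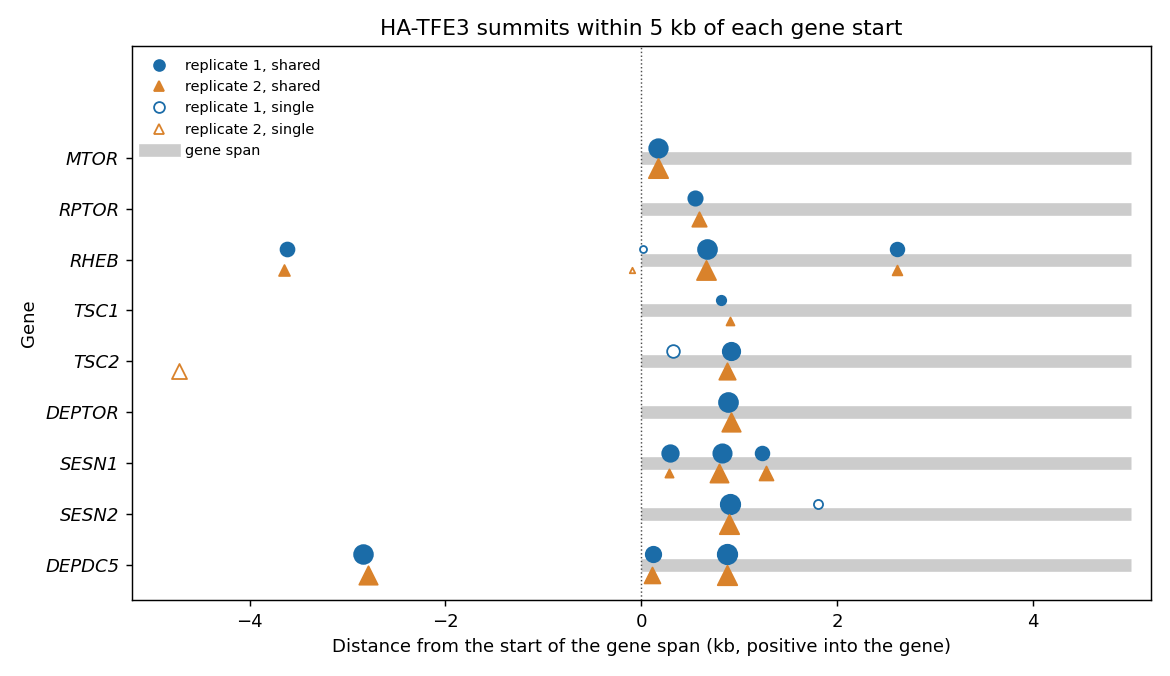
Summits within 5 kb of each gene start are placed by their distance from the start in kb, positive into the gene, with replicate 1 as circles above replicate 2 as triangles. Gene starts are known only to 1 kb, so a summit plotted between 0 and 1 kb may lie on either side of the start. Filled symbols are shared summits, open symbols were found in 1 list, and size grows with the score percentile; each of the 9 genes has a filled pair between 0 and 1 kb, and SESN1, RHEB and DEPDC5 have 3 filled pairs each.

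RPTOR encodes raptor, the scaffold that brings substrates to the kinase, and it differed from most other members in where its highest summits lay. It is the longest of the genes, with a span of 423 kb on chromosome 17, from 78518 to 78941 kb on the plus strand. It held 15 shared summits, of which 14 lay inside the gene away from the start. The start summit, at base 78518551 and 551 bp from the start, scored 8.78 in replicate 1 and 9.20 in replicate 2 (percentile 51.6 and 52.3). It ranked 13 among the 15. The highest, at base 78807145 and 289.1 kb from the start, scored 38.6 and 28.6, or percentile 97.4 and 91.7, in the top decile of both lists.

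The highest-ranked RPTOR summits lay in the second part of the gene, a pattern seen in the values and not tested. Of the 8 shared summits more than 240 kb from the start, a limit chosen after seeing the values, 7 were above the median score in both lists. Over all of RPTOR, with these 8 included, this was so for 11 of 15, and over the series for 51.1% of shared summits. A cluster of 3 lay within 1360 bp at 347.5, 348.0 and 348.9 kb from the start. The middle of these scored 20.8 in replicate 1 and 37.9 in replicate 2. Summits found in 1 list only numbered 6 in replicate 1 and 3 in replicate 2, and their percentiles ran from 1.9 to 50.1. Although RPTOR held 33.3% of the members' shared summits, it also made up 33.6% of the length examined. Windows of its width held a median of 4 shared summits along the genome, and 14.5% held 15 or more.

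DEPTOR encodes an inhibitory subunit of mTORC1. On the plus strand of chromosome 8, its span of 179 kb runs from 120885 to 121064 kb, and it held 4 shared summits. The start summit, at base 120885890 and 890 bp from the start, scored 30.7 in replicate 1 and 25.5 in replicate 2. This is percentile 94.2 in replicate 1 and 89.5 in replicate 2, inside the top decile of replicate 1 and just outside that of replicate 2. The other 3 lay together, between 110.1 and 128.9 kb into the gene, at bases 120995145, 121010501 and 121013907. Their scores were 15.5, 15.5 and 15.5 in replicate 1, and 9.50, 15.0 and 17.9 in replicate 2. Each list had 2 further DEPTOR summits that were not paired, at percentile 35.3 or below. With a pairing limit of 200 bp, DEPTOR had 5 shared summits.

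**Figure D3:**
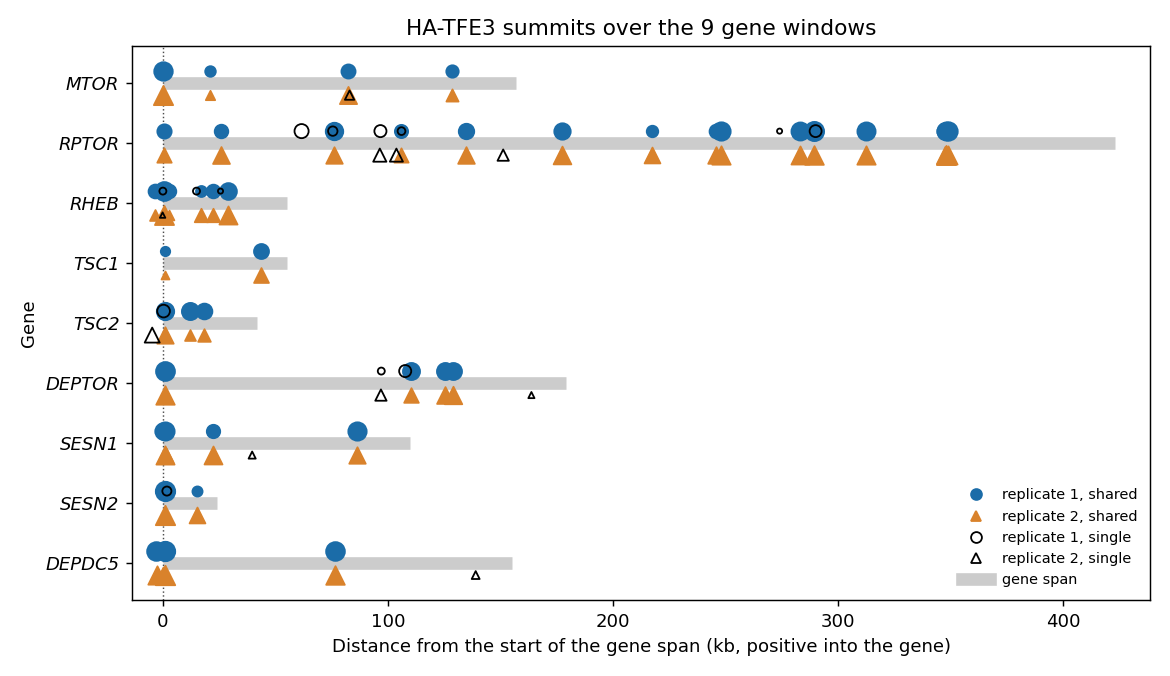
Summits of all 9 gene windows are placed by distance from the gene start in kb, with grey bars for the gene spans. Filled symbols are shared summits (circles for replicate 1, triangles for replicate 2), open symbols were found in 1 list, and size grows with the score percentile; RPTOR carries 15 shared summits along 423 kb, with large symbols beyond 240 kb.

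The start summits of the 9 genes could be put in order by their mean percentile over the 2 lists. DEPDC5 came first with 99.86 ± 0.08 (SD, n = 2 libraries), followed by SESN2 with 99.12 ± 0.58. RHEB, MTOR and DEPTOR had 94.72 ± 1.31, 94.05 ± 5.29 and 91.82 ± 3.35, and the values of the 2 libraries overlapped between RHEB and MTOR and between MTOR and DEPTOR, so the order of those neighbours was within the spread between replicates. SESN1 had 87.20 ± 0.85, TSC2 74.19 ± 6.65, RPTOR 51.92 ± 0.48 and TSC1 15.62 ± 5.07. In each of the other neighbouring pairs the values of the 2 libraries did not overlap. With 2 libraries no test of these differences was run, and nothing says that the libraries came from separate cultures, so their spread may be technical.

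In 7 of the 9 genes the highest-ranked shared summit was the one at the start, and RPTOR and TSC1 were the exceptions. Over all members, 12 of 45 shared summits, or 26.7%, lay within 2 kb of a start, a zone that made up 2.79% of the length examined. Another 31 lay inside the genes, 2 lay in the upstream flanks and 0 lay in the downstream flanks. Neither the 7 of 9 nor the 26.7% could be set beside other genes, because the starts of other genes on hg19 were not used here. Median percentiles of the 9 highest start summits were 90.3 in replicate 1 and 89.5 in replicate 2. For all 12 near starts they were 83.3 and 78.0, for the 33 shared summits away from starts they were 69.7 and 71.7, and for all 47396 shared summits of the series 59.1 and 64.3.

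Of the members' shared summits, 6 of 45, or 13.3% (95% exact binomial interval 5.05 to 26.8), were in the top score decile of both lists, against 9.11% of all shared summits. The interval includes the share of the whole series. Such a summit lay at the start of 4 members, namely DEPDC5, SESN2, RHEB and MTOR. Along the genome 0.558% of 4 kb windows held one, a background that takes in gene deserts, and gene starts in general were not measured. The remaining 2 lay inside DEPDC5 and RPTOR.

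**Figure D4:**
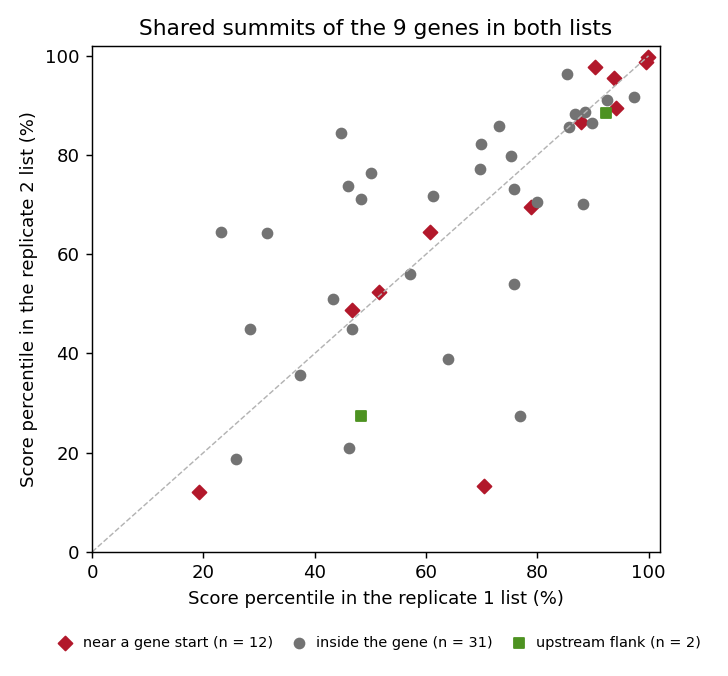
Each of the 45 shared summits is plotted by its score percentile in the replicate 1 list (horizontal axis) and in the replicate 2 list (vertical axis), with a dashed line where both are equal. Diamonds are the 12 near a gene start, circles the 31 inside a gene and squares the 2 in an upstream flank; 7 diamonds lie at percentile 69.5 or above in both lists.

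Most of the members' summits were found in both libraries. In replicate 1 the shared part was 77.6% of the 58 summits (95% exact binomial interval 64.7 to 87.5), against 76.1% of the whole list. In replicate 2 it was 81.8% of 55 (69.1 to 90.9), against 65.2%, a value just below the interval. These intervals account for counting error alone, and they treat summits as independent although some are neighbours. The median distance between paired summits was 26 bp for the members and 26 bp for the series.

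Summits found in 1 list only ranked low in these genes. Their median percentile was 17.5 for the 13 of replicate 1 and 24.5 for the 10 of replicate 2, against 24.8 and 27.4 for such summits in the whole series. Of all 23, 21 were below the median of their list, as were 80.6% and 81.3% of such summits in the whole lists of replicates 1 and 2. Across the 45 shared summits, Spearman's rank correlation of the scores between the lists was 0.77, against 0.729 over all shared summits. This is a description across summits, some of which are neighbours in the same gene. Ranks differed by more than 30 percentile points for 5 of the 45, namely 2 in SESN1 and 1 each in RPTOR, TSC2 and SESN2, or 11.1%, against 16.6% over all shared summits.

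Summits were denser over the members than over the genome. Their windows, 1.29 Mb in all, held 45.0 summits per Mb in replicate 1 and 42.6 in replicate 2, which was 2.19-fold (95% Poisson interval 1.66 to 2.83) and 1.78-fold (1.34 to 2.32) the average of chromosomes 1 to 22 and X. Among single genes the interval lay above the average in both lists only for RHEB, at 6.75-fold (3.09 to 12.8) and 4.50-fold (1.81 to 9.27), and for RPTOR, at 2.36-fold (1.46 to 3.61) and 1.74-fold (1.03 to 2.75). For MTOR, DEPDC5, TSC1, DEPTOR, SESN1 and SESN2 the intervals included the average in both lists, and for TSC2 in replicate 2. The Poisson intervals treat summits as independent and evenly spread, whereas 16.5% of all shared summits had another within 1 kb. They can thus be too narrow. Among genome windows of the same width, 3.11% held as many shared summits as RHEB or more, and 14.5% as many as RPTOR or more. Gene-rich parts of the genome were not compared separately. Read counts are not part of the lists, so depth is unknown, and depth and threshold both affect how many summits are listed.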

How the data were processed

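HA-TFE3 ChIP-seq libraries of HK-2 cells were analysed from the lists of 1 bp summits that the authors deposited, 1 list for each of the 2 libraries, each summit with a score of unstated scale. Per the submitters' processing notes, the build is hg19. How reads were aligned, how peaks were called, at what threshold and whether against the input, was not given in the sources used. From the lists were computed 1-based positions on chromosomes 1 to 22 and X (35 and 45 summits elsewhere were not used), score percentiles within each list, and pairs of mutual nearest summits at most 100 bp apart. Gene spans, in whole kb, came from the rule that defines the genes, with 5 kb added on each side. "Near a start" means at most 2 kb. The background was computed from full windows tiled along the chromosomes, with lengths from GenomeInfoDb 1.38.1. Shares carry exact Clopper-Pearson intervals and densities exact Poisson intervals, at 95%. Motifs were searched in RefSeq promoters on GRCh38.p14, which were matched by symbol and not by coordinates. The pairing code was run on simulated lists, with summits drawn at random along the chromosomes and shared ones shifted by less than the 100 bp limit. That checks the code and not how well pairing works in the real lists, where summits cluster. There is 1 group with summit lists, so no groups were compared and no p-values are given. All 9 genes are named. Positions are given for the highest-ranked shared summit and the one nearest to the start, and for all shared summits in genes with 5 or fewer; others were chosen after their values were seen. The genes and lists were chosen with earlier results of these data known. Calculations used Python 3.11.15, NumPy 2.4.6 and SciPy 1.17.1, and plots matplotlib 3.10.9.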

Additional observations from a re-analysis of the deposited data

How the results depend on the processing

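All 9 genes kept a shared summit, and 8 or 9 kept one near the start, under each alternative run: limits of 50, 200 and 500 bp, flanks of 0 and 10 kb, summits above the median score, and limits of 1 and 5 kb for a start. TSC1 was the gene that lost its start summit, with 50 bp and above the median score. Shared summits numbered 27 above the median score instead of 45, since fewer summits were used. With limits of 50, 200 and 500 bp the shared part was 65.5, 81.0 and 82.8% in replicate 1 and 69.1, 85.5 and 87.3% in replicate 2. Above the median score it was 90.0% and 77.1%, and with flanks of 10 kb it was 77.1% in replicate 2. The shares over the whole lists were not computed with these limits or above the median score. Density in replicate 2 was 2.12-fold with flanks of 10 kb and 2.29-fold above the median score. Flanks of 10 kb added 9 shared summits, the nearest of them 5.5 kb upstream of DEPTOR. The list of replicate 2 alone gave 55 summits and that of replicate 1 alone gave 58, with 7 and 8 in the top decile; each list alone keeps every shared summit by construction. Counts for single genes, chosen after seeing the data, moved by over 1.5 times in 10 of 72 cases. No paired analysis was possible because only 1 group has summit lists. Depth is unknown, so a gene with few summits is not shown to lack binding.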
